A study of Mus musculus with 18 samples.

Results

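Primordial germ cells (PGCs), the embryonic founders of sperm and eggs, were taken from E9.5 mouse embryos, cultured on feeder cells with or without cyclosporin A (CsA), and profiled with SC3-seq, which sequences the 3′ ends of transcripts from small inputs. The comparison uses the 2 libraries titled E9.5c5+CsA and the 2 titled E9.5c5 FR10, chosen by title, so 4 of the 18 libraries and 2 of the 9 groups of the series. Here c5 is read as 5 days of culture. All 4 libraries came from B6D2F1 x C57BL/6 cells that carried a Stella-EGFP reporter and were sorted for EGFP, so the cells were selected on the promoter of Dppa3 (Stella) itself. The PGCs grew on mitomycin-treated m220-5 feeder cells in a medium with stem cell factor (SCF) and forskolin, and with rolipram in at least the FR10 cultures. FR10 stands for forskolin and rolipram, which raise cyclic AMP. Forskolin is listed at 10 µM for the CsA and the FR10 libraries alike. The CsA titles do not name FR10, and the labels do not spell out whether the CsA cultures held rolipram too. A difference between CsA and FR10 libraries, called an effect of CsA below, could therefore include one of rolipram. The CsA dose is not given in the sources used here. The labels' protocols call the 2 replicates of each cultured group biological. A second pair of groups, d4c7+CsA and d4c7 FR10, serves to test whether an effect differs between kinds of cell. They hold PGC-like cells of B6D2F1 stem cell origin with Blimp1-mVenus and Stella-ECFP reporters, taken at day 4 of induction, cultured for 7 days (c7) and sorted for mVenus, with 2 libraries each.

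CsA binds cyclophilins, a family of prolyl isomerases, and the complex blocks calcineurin, the phosphatase that lets NFAT transcription factors enter the nucleus. Some cyclophilins act elsewhere. Cyclophilin B (Ppib) works in the lumen of the endoplasmic reticulum (ER), where secreted and membrane proteins fold, and cyclophilin D (Ppif) in mitochondria. When unfolded proteins build up in the ER, the sensors ATF6, IRE1 and PERK start the unfolded protein response, which raises the genes of ER chaperones such as Hspa5 (BiP) and Hsp90b1 (GRP94). In mammals, cleaved ATF6 together with NF-Y acts on a promoter sequence known as the ER stress response element.

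The values are RPM, reads scaled to a common library total, and each gene was compared as log2(RPM + 1), CsA minus FR10, so that a positive difference means higher with CsA. The 4 libraries held 2939033 to 5304524 reads, inferred from the smallest RPM step. At that depth 3 reads correspond to 0.566 to 1.02 RPM, and 6803 to 7466 genes reached 10 RPM. Replicates were far apart. The median absolute log2 difference between replicates over the 9561 genes tested was 0.601 for CsA and 0.426 for FR10 in E9.5c5, against 0.193 in embryonic stem cells. The CsA replicate 2 library stood apart in its makeup. The 82 ribosomal protein genes took 30.7% and 40.1% of all RPM in CsA replicates 1 and 2, against 31.7% and 33.9% in the FR10 libraries. The part of this in the results below was not tested.

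The defining markers of germ cells were present. Dppa3 stood at 3690 and 2350 RPM with CsA and at 3270 and 2620 RPM with FR10. Because the cells were sorted on the Dppa3 promoter, its level is no separate evidence of their identity. The 30 early germ cell and pluripotency genes summed to 14900 and 13200 RPM with CsA and to 14200 and 14100 RPM with FR10. Of 19 blood and endothelial markers, 10 were at 0 in all 4 libraries. Among them were the globins Hbb-y, Hbb-bh1, Hba-a1 and Hba-x and the leukocyte gene Ptprc. The other markers were detected, mostly at low levels. Eng stood at 24.4 and 16.6 RPM with CsA and at 14.3 and 16.3 RPM with FR10. Tek stood at 10.2 and 6.6 RPM with CsA and at 4.76 and 10.5 RPM with FR10. Lyz2 stood at 3.62 and 0 RPM with CsA and at 8.51 and 0.251 RPM with FR10. Cd68 was higher, at 1.81 and 3.77 RPM with CsA against 0.34 and 0.502 RPM with FR10. Csf1r was lower, at 0 and 0 RPM with CsA against 2.38 and 1.0 RPM with FR10. The 22 markers of gut epithelium and gonadal somatic cells were also at 0 for 10 members, with sums of 83.2 and 123 RPM in CsA libraries and of 63.6 and 61.0 RPM in FR10 libraries, most of it in the tight junction genes Cldn6 and Cldn7. The 22 fibroblast and feeder markers summed to 1260 and 736 RPM with CsA and to 1040 and 871 RPM with FR10, mostly Fn1 and Lgals1. Of these 22, Lum and Thy1 were at 0 in all 4 libraries, and other members at low levels were mixed. Fbn1, a microfibril gene, was apart, at 0 and 0.189 RPM with CsA and at 2.38 and 4.52 RPM with FR10. Pdgfra, a fibroblast receptor, overlapped, at 0 and 0 RPM with CsA and at 3.4 and 0 RPM with FR10. Ccl2 overlapped too, at 0.904 and 2.45 RPM with CsA and at 1.02 and 2.01 RPM with FR10. So did Lox, at 2.11 and 0 RPM with CsA and at 1.7 and 1.0 RPM with FR10. The median log2 difference of the 14 tested feeder markers was -0.51. In such bulk libraries fewer cells of a type and less RNA per cell cannot be told apart.

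The promoters of the genes with the clearest difference are shown here because 3 of them hold the ER stress response element. The element was searched as CCAAT, 9 bases of any kind (N), and CCACG, on both strands, in windows from 250 bases before to 50 bases after each RefSeq start (GRCm38.p6, the same build as the mm10 named by the submitters). It occurred in 37 of 27025 genes with a window, or 0.137%, and 7748 of the 9561 tested genes had a window. Among the 12 higher genes with the smallest p, 10 had a window and 3 held the element. Among the 12 lower genes, all 12 had a window and 0 held it. The 3 windows follow in the direction of the gene, with both ends of each element, CCAAT and CCACG, in capitals. They lie at chr2:34771840-34772139 on the plus strand for Hspa5, chr10:86705395-86705694 on the minus strand for Hsp90b1, which holds 2 elements, and chr12:17266339-17266638 on the plus strand for Pdia6.
Hspa5: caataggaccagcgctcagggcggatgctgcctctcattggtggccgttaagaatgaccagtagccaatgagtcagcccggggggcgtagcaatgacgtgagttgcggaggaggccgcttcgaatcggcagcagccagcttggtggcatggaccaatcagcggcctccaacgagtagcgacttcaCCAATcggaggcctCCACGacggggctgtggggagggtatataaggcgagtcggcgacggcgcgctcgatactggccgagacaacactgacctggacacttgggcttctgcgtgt
Hsp90b1: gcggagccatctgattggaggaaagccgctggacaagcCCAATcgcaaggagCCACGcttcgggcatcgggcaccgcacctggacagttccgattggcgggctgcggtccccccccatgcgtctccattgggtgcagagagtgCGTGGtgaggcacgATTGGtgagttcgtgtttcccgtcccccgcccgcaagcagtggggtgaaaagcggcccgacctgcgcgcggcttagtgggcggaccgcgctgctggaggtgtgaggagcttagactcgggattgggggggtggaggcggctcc
Pdia6: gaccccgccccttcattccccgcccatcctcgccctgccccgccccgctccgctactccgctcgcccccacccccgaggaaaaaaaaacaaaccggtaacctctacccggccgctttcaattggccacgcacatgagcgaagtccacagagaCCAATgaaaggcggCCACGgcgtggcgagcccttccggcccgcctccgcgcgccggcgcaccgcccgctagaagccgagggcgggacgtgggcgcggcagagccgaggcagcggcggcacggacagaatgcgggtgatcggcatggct
In Hspa5 the centre of the element lies 56 bases before the start of the gene, in Pdia6 89 bases, and in Hsp90b1 203 bases for one and 98 bases for the other, which is read on the opposite strand.

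In all, 14 tested genes held the element. Both CsA libraries exceeded both FR10 libraries for 6 of them and lay below both for 0, against 8.61% of all tested genes with both CsA libraries above and 16.8% with both below. The median log2 difference of the 14 was 0.64, against -0.11 for all genes. Of the 14, 9 belong to an ER gene list, and Hspa5, Hsp90b1 and Pdia6 were shown for their small p. These figures therefore reuse the values that picked the genes and are not a separate test of the element. Besides the 3 above, the elements of other ER genes are given on their own, read so that CCAAT comes first, to show how the 9 bases in between vary.
Creld2: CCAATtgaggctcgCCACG
Calr: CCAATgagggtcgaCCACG
Derl3: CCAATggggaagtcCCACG
Syvn1: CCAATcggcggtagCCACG
Canx: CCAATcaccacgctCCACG
Dnajc3: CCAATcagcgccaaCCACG
Creld2, an ER protein with disulfide isomerase-like function, stood at 74.1 and 44.3 RPM in CsA libraries and at 33.3 and 17.1 RPM in FR10 libraries. Dnajc3 (p58IPK), a co-chaperone of BiP, stood at 43.7 and 25.1 RPM with CsA and at 39.5 and 28.6 RPM with FR10, and Canx (calnexin) at 151 and 142 RPM with CsA and at 143 and 129 RPM with FR10. The groups of Creld2 did not overlap, while those of Dnajc3 and Canx did. These 3 genes were chosen after their values were seen. The remaining tested genes with the element include Xlr3a and Xlr3b, near-identical copies on chromosome X whose reads may be split between them. They account for 2 of the 6, and the other 4 are ER genes. A match is a stretch of letters and not a measured binding site.

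Of 9561 genes tested in limma, 0 passed a Benjamini-Hochberg adjusted p under 0.05 (0% called), and the smallest adjusted p was 0.0524. At an unadjusted p under 0.05 there were 703 genes, 203 of them higher (2.12%) and 500 lower (5.23%) with CsA. If no gene differed, a share of about 0.05 of the tested genes would pass that threshold. With the 4 E9.5c5 libraries alone 42 genes were higher and 93 lower, and with array weights 33 and 81, both under that share. Counts of list members at this threshold, given below, rest on the spread of all 9 groups. Voom weights on the inferred reads gave 1 call, Hsp90b1. The libraries of the groups did not overlap for 823 higher genes (8.61%) and 1602 lower genes (16.8%). With 2 libraries a group an exact two-sided permutation test of a single gene cannot go below p = 0.333. The median gene was lower with CsA by the RPM scale, at -0.11. Median-ratio scaling, which sets that median to 0.00, gave 333 higher and 370 lower genes at an unadjusted p under 0.05. Directions of whole lists are therefore set beside that median. Both the counts and their balance depend on single libraries. At an unadjusted p under 0.05 there were 606 higher and 388 lower genes without CsA replicate 2, 317 higher and 1859 lower without CsA replicate 1, 518 higher and 514 lower without FR10 replicate 1, and 134 higher and 411 lower without FR10 replicate 2. Groups that did not overlap numbered 3451 higher and 2934 lower without CsA replicate 2, 2055 higher and 4804 lower without CsA replicate 1, and 1153 higher and 1264 lower under median-ratio scaling with all 4 libraries. Without CsA replicate 1, when the lone CsA library is assumed to vary like the other groups, 654 genes were called, 41 higher and 613 lower. Without CsA replicate 2 there were 6 calls, all higher.

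ER chaperones and folding enzymes were the list with the highest median. Both CsA libraries exceeded both FR10 libraries for 13 of its 26 tested members (50.0%, against 8.61% of all genes) and lay below for 1, and 12 members were higher and 1 lower at an unadjusted p under 0.05. The median log2 difference was 0.72, against -0.11 for all genes. Taking the CsA and FR10 libraries of the same number, 24 of 26 members were higher in replicate 1 and 23 of 26 in replicate 2, against 49.9% and 36.0% of all genes tested. Leaving out 1 library, which makes overlap less likely for every gene, gave 16 to 21 members above and 1 to 3 below, with 21 above without CsA replicate 2 and 20 without FR10 replicate 1. Over all genes 18.8% to 36.1% lay above under the same omissions. Of the 6 gut and gonadal markers tested, 3 lay above, Cldn6 and Cldn7 among them, and 0 below. That list holds 22 markers, 10 of them at 0 in all 4 libraries, so no trend of the list is read from the 6. The part of these markers in the ER result was not tested.

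Hsp90b1, which encodes GRP94, the HSP90 chaperone of the ER (chr10:86690841-86705444), stood at 826 and 723 RPM in CsA libraries and at 370 and 364 RPM in FR10 libraries. The groups were apart, with a log2 difference of 1.07 ± 0.16 (SE, n = 2 each, limma adjusted p = 0.0524). This SE, like the others given, rests on 1 spread per gene pooled over the 9 groups of the series. Replicates differed most in E9.5c5 CsA (median 0.601), so the SE and p values may understate the spread of the libraries compared. Hspa5, the HSP70 chaperone of the ER and the regulator of the stress sensors, stood at 679 and 274 RPM with CsA and at 187 and 107 RPM with FR10, a log2 difference of 1.60 ± 0.31 (limma adjusted p = 0.181). CsA replicate 1 was the highest library and CsA replicate 2 stayed above both FR10 libraries. Manf, a secreted ER stress-inducible protein (chr9:106888753-106891938), stood at 628 and 269 RPM with CsA and at 164 and 122 RPM with FR10, a log2 difference of 1.53 ± 0.31 (limma adjusted p = 0.181). Its groups were also apart, and again CsA replicate 1 was the higher of its group.

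The protein disulfide isomerases, which form and shuffle disulfide bonds, gave the next values. Pdia6 stood at 734 and 243 RPM with CsA and at 212 and 105 RPM with FR10, a log2 difference of 1.49 ± 0.37 (limma adjusted p = 0.444). Pdia4 and Pdia3 were chosen after their values were seen. Pdia4 stood at 23.2 and 23.0 RPM with CsA and at 5.44 and 8.54 RPM with FR10, and Pdia3 at 21.4 and 8.48 RPM with CsA and at 6.12 and 2.26 RPM with FR10. For each of these 3 genes both CsA libraries were above both FR10 libraries. Fkbp11, an ER prolyl isomerase of the FK506-binding family, stood at 21.1 and 42.6 RPM with CsA and at 8.17 and 7.28 RPM with FR10, and here CsA replicate 2 was the higher library. Its log2 difference was 1.83 ± 0.48.

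The list was not uniform, and Calr and Ero1l were chosen to show this after their values were seen. Calr (calreticulin), a lectin chaperone of glycoproteins, stood at 87.7 and 265 RPM with CsA and at 58.9 and 139 RPM with FR10. The groups overlapped because replicate 2 was the higher library in each, although CsA was the higher group in each replicate number. Ero1l, the oxidase that recharges disulfide isomerases and is also induced by low oxygen, was the 1 member with the groups apart in the other direction, at 108 and 76.9 RPM with CsA and at 136 and 135 RPM with FR10. Ppib, the ER cyclophilin that CsA can bind, stood at 41.6 and 13.0 RPM with CsA and at 26.5 and 7.28 RPM with FR10, so its groups overlapped.

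**Figure D1:**
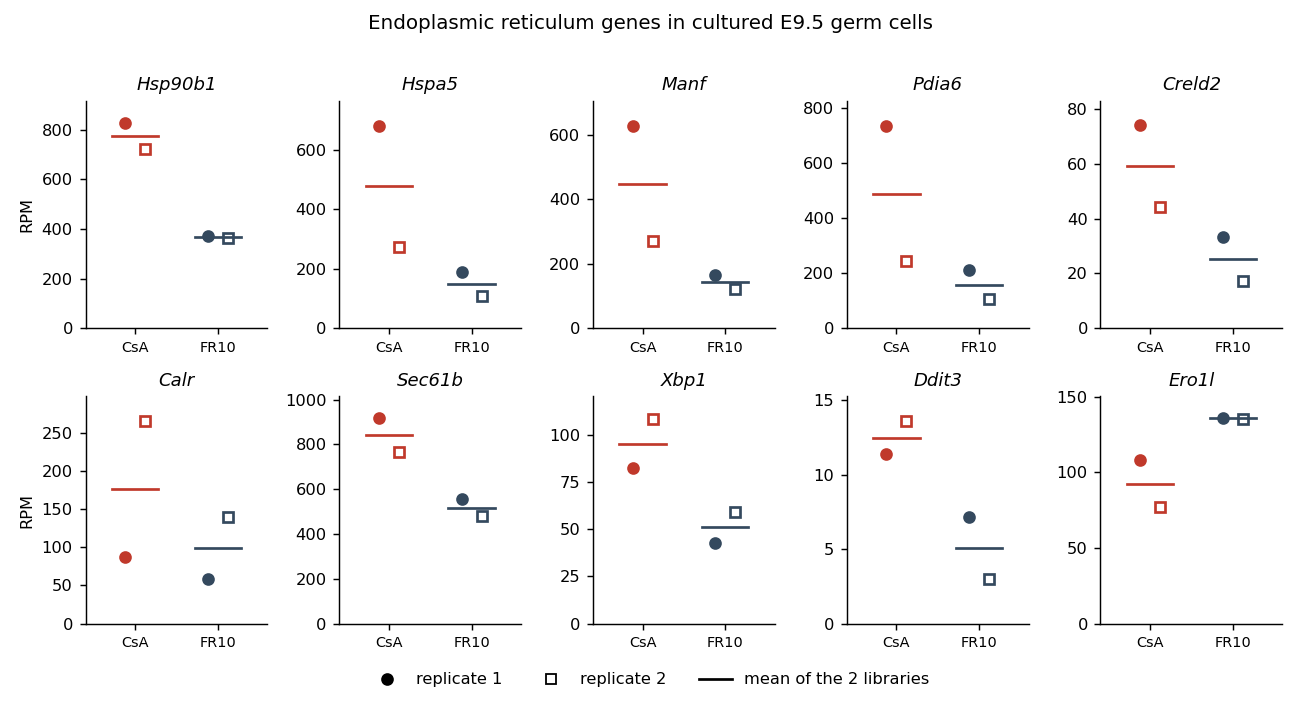
RPM (vertical axes, from 0) of 10 ER genes in the 2 CsA libraries (left, red) and the 2 FR10 libraries (right, dark blue) of cultured E9.5 germ cells, with filled circles for replicate 1, open squares for replicate 2 and lines for the mean. Both CsA libraries lie above both FR10 libraries for every gene shown except Calr, whose groups overlap, and Ero1l, which is lower with CsA.

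Genes of the ER entry route gave smaller differences. They encode the Sec61 channel, the signal recognition particle, signal peptidase and the oligosaccharyl transferase. Of 29 tested members, 4 had both CsA libraries above both FR10 libraries (13.8%) and 0 below, against 8.61% and 16.8% of all genes. At an unadjusted p under 0.05, 2 were higher and 0 lower, against 2.12% and 5.23% of all genes. The median log2 difference was 0.33, against -0.11 for all genes. Under median-ratio scaling 9 members lay above (31%) and 0 below, against 12.1% and 13.2% of all genes. Sec61b, the beta subunit of the channel, stood at 917 and 767 RPM with CsA and at 557 and 479 RPM with FR10, a log2 difference of 0.70 ± 0.17 (limma adjusted p = 0.444). Ostc, a subunit of the oligosaccharyl transferase, stood at 217 and 81.1 RPM with CsA and at 94.6 and 59.0 RPM with FR10. Its groups overlapped because CsA replicate 2 lay below FR10 replicate 1.

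The signalling and degradation branches of the unfolded protein response gave a median log2 difference of 0.22 over 25 tested members. Of these, 7 had both CsA libraries above (28%) and 2 both below (8%) the FR10 libraries, against 8.61% and 16.8% of all genes. Without CsA replicate 1 that median was -0.03, with 9 members above (36%) and 11 below (44%). Under that omission 21.5% of all genes lay above and 50.2% below. Xbp1, the transcription factor spliced by IRE1, stood at 82.2 and 108 RPM with CsA and at 42.9 and 59.0 RPM with FR10, a log2 difference of 0.90 ± 0.26 (limma adjusted p = 0.522). Selk, an ER membrane selenoprotein of the degradation route, stood at 92.2 and 81.4 RPM with CsA and at 50.4 and 43.7 RPM with FR10. Both genes had groups that did not overlap. Ddit3 (CHOP), the factor tied to PERK signalling and cell death, stood at 11.4 and 13.6 RPM with CsA and at 7.15 and 3.01 RPM with FR10, a log2 difference of 1.24 ± 0.78, and was chosen after its values were seen. The genes of the PERK and ATF4 arm that answer to amino acid shortage, 28 tested, had both CsA libraries above for 3 members and below for 2, with a median of 0.25. Atf4 itself stood at 180 and 110 RPM with CsA and at 106 and 112 RPM with FR10, with overlapping groups.

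ER genes led the ranking of single genes, which rests on the same values as the lists. By smallest p among genes with groups apart, 7 of the 12 leading higher genes belong to an ER list and 0 of the 12 leading lower genes do. The ER lists hold 26, 29 and 25 of the 9561 tested genes. They were written with earlier results of these data known, so this count is a description and not a test. Serp1 and Slc35b1, which also act in the ER, stand among the 12 but in no list. Serp1, a stress-associated ER membrane protein, stood at 208 and 145 RPM with CsA and at 94.9 and 80.1 RPM with FR10, a log2 difference of 0.98 ± 0.22. Slc35b1, which imports ATP into the ER, stood at 85.3 and 78.6 RPM with CsA and at 46.6 and 44.2 RPM with FR10. Outside the ER, Sort1, the sorting receptor sortilin, stood at 27.1 and 17.0 RPM with CsA and at 6.12 and 7.53 RPM with FR10, and Ddx49, an RNA helicase of ribosome assembly, at 31.3 and 47.5 RPM with CsA and at 18.4 and 15.1 RPM with FR10.

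**Figure D2:**
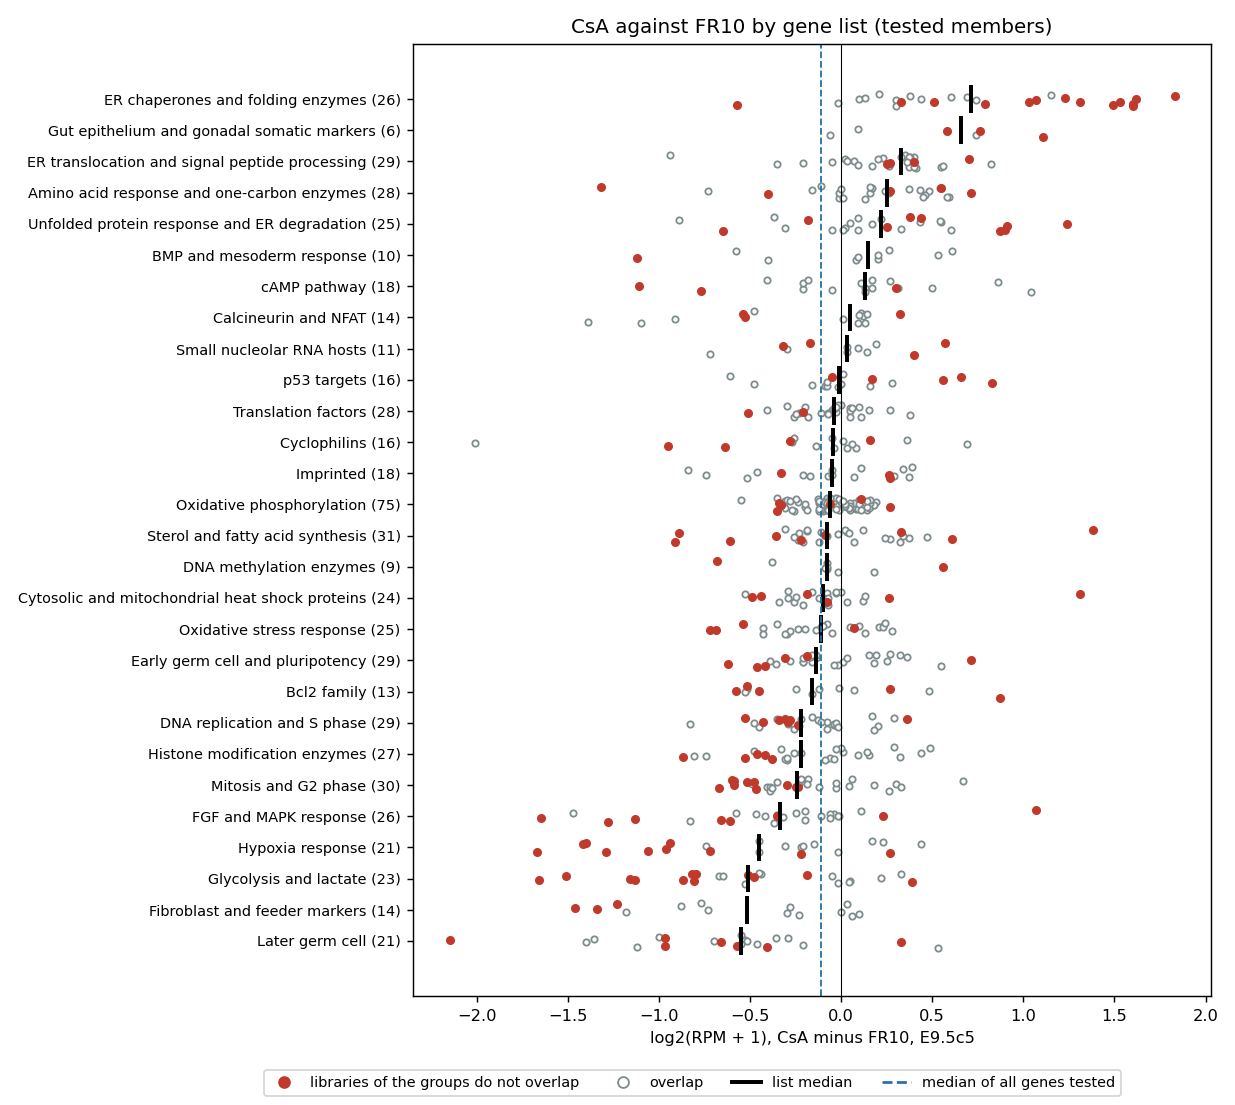
Log2 differences of RPM + 1, CsA minus FR10, in cultured E9.5 germ cells (horizontal axis) for the tested members of the 28 gene lists with more than 2 (number of members in brackets). Red points are genes whose groups do not overlap, black bars list medians and the dashed line the median of all genes at -0.11. The ER chaperone list has the highest median at 0.72, and the later germ cell list the lowest at -0.55.

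Glycolysis genes gave lower values with CsA. Both CsA libraries lay below both FR10 libraries for 11 of 23 tested members and above for 1 (47.8% below, against 16.8% of all genes), and 10 were lower and 0 higher at an unadjusted p under 0.05, with a median log2 difference of -0.51 against -0.11 for all genes. Under median-ratio scaling 7 members lay below and 1 above, against 13.2% of all genes below and 12.1% above. The fibroblast and feeder markers had a median of -0.51 as well, with 3 of 14 tested members below and 0 above, and their part in the glycolysis and hypoxia results was not tested. Pkm, pyruvate kinase (chr9:59656576-59679372), stood at 404 and 533 RPM with CsA and at 682 and 1060 RPM with FR10, a log2 difference of -0.87 ± 0.23 (limma adjusted p = 0.459). Tpi1, triose phosphate isomerase, stood at 26.8 and 17.3 RPM with CsA and at 44.2 and 52.7 RPM with FR10. Pfkp, a platelet-type phosphofructokinase that commits sugar to glycolysis, stood at 137 and 79.0 RPM with CsA and at 169 and 202 RPM with FR10. These groups were apart for all 3 genes.

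Pfkl, Slc2a3 and Ldhb were chosen after their values were seen. Pfkl, the liver-type phosphofructokinase, stood at 8.44 and 13.2 RPM with CsA and at 27.2 and 37.4 RPM with FR10. Ldha, the lactate dehydrogenase subunit, stood at 15.4 and 40.0 RPM with CsA and at 40.5 and 79.9 RPM with FR10, where CsA replicate 2 and FR10 replicate 1 nearly met. The exception was Slc2a3, the glucose transporter GLUT3, at 453 and 380 RPM with CsA and at 302 and 332 RPM with FR10, the 1 member with both CsA libraries above. Ldhb did not follow the list, at 794 and 430 RPM with CsA and 732 and 477 RPM with FR10.

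Genes of the hypoxia response shared that direction. Both CsA libraries lay below both FR10 libraries for 9 of 21 tested members (42.9%, against 16.8% of all genes) and above for 1, 7 were lower and 0 higher at an unadjusted p under 0.05, and the median was -0.45. Without CsA replicate 1 there were 16 members below (76.2%), against 50.2% of all genes. Bnip3, a mitophagy receptor and target of HIF1, stood at 14.5 and 16.2 RPM with CsA and at 29.3 and 62.0 RPM with FR10, a log2 difference of -1.42 ± 0.34 (limma adjusted p = 0.444). Pgm2, a sugar phosphomutase, stood at 24.7 and 12.8 RPM with CsA and at 36.4 and 33.9 RPM with FR10. Ndrg1, a gene known for induction by low oxygen, stood at 0.603 and 0.377 RPM with CsA and at 3.06 and 2.76 RPM with FR10, near the level of 3 reads. Hif1a itself, chosen after its values were seen, overlapped between groups, at 74.1 and 51.1 RPM with CsA and 87.1 and 66.8 RPM with FR10. Vegfa did not reach the filter, and Adm and Car9, other classical members, were at 0 in all 4 libraries.

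**Figure D3:**
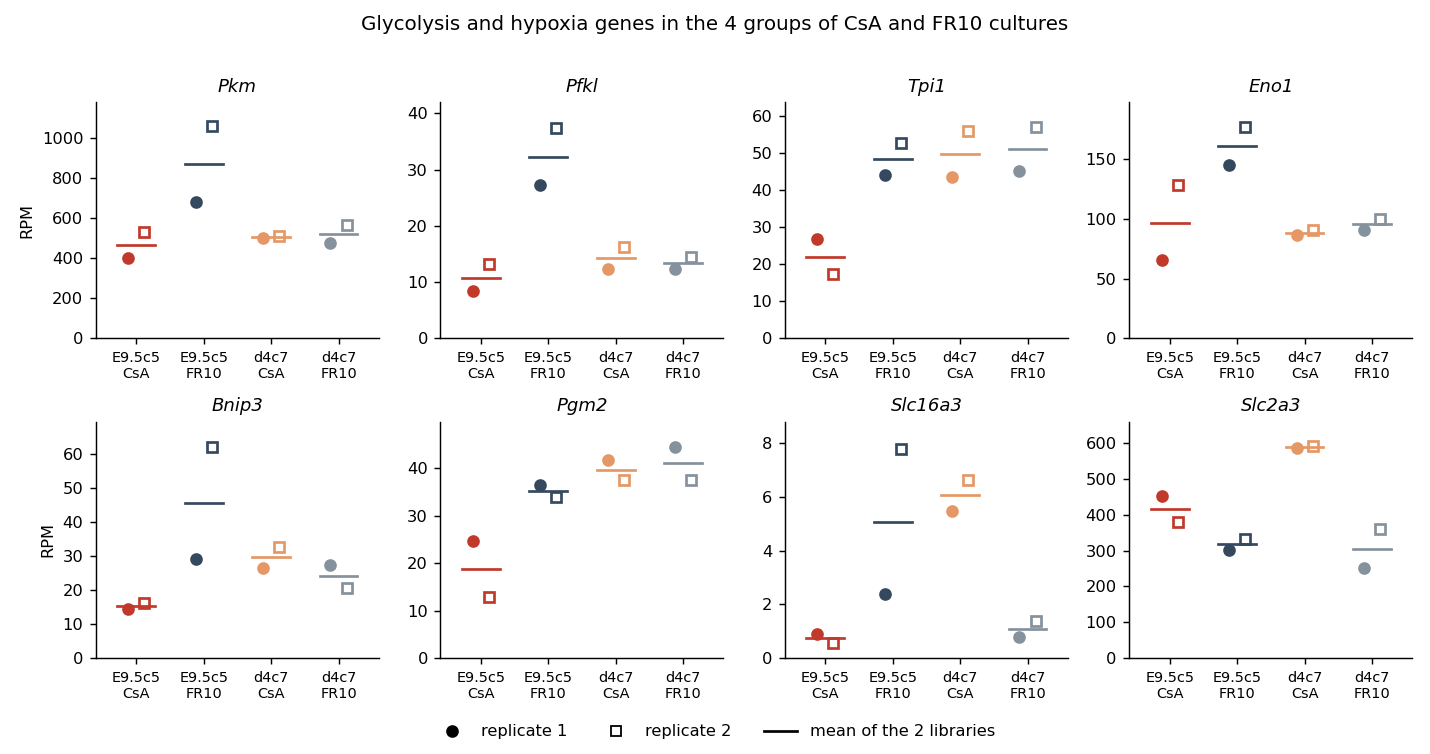
RPM (vertical axes, from 0) of 8 glycolysis and hypoxia genes in CsA and FR10 cultures of E9.5 germ cells (E9.5c5, red and dark blue) and of PGC-like cells (d4c7, orange and grey), with circles for replicate 1, squares for replicate 2 and lines for the mean. In E9.5c5 both CsA libraries lie below both FR10 libraries for every gene shown except Slc2a3, while in d4c7 Slc16a3 and Slc2a3 are higher with CsA.

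Among the direct targets of the drug, the calcineurin and NFAT list held 14 tested genes, with a median of 0.05. Both CsA libraries lay above for 1 (7.14%) and below for 2 (14.3%), near the 8.61% and 16.8% of all genes. Rcan1, a calcineurin inhibitor whose transcription follows NFAT, stood at 58.7 and 32.8 RPM with CsA and at 71.8 and 53.2 RPM with FR10. Ppp3ca, the catalytic subunit of calcineurin, stood at 28.3 and 25.4 RPM with CsA and at 20.8 and 21.8 RPM with FR10, the 1 member with CsA above. Cyclophilins, 16 tested, had 1 member above (6.25%) and 3 below (18.8%), also near the shares of all genes. Ppia, the main cytosolic target of CsA, stood at 6070 and 4960 RPM with CsA and at 5920 and 4990 RPM with FR10, a difference smaller than the replicate spread. Ppif stood at 20.8 and 7.16 RPM with CsA and at 24.8 and 24.6 RPM with FR10, a log2 difference of -0.95 ± 0.37.

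FGF and MAPK response genes had a median of -0.34 over 26 tested members, against -0.11 for all genes. Both CsA libraries lay below for 6 (23.1%) and above for 2 (7.69%), near the 16.8% and 8.61% of all genes. The log2 difference was negative for 23 of 26 members, against 5845 of 9561 genes. At an unadjusted p under 0.05, 4 were lower and 1 higher. In d4c7 18 members lay below (69.2%, against 41.6% of all genes), with a median of -0.8. Etv4, an ETS factor induced by FGF, stood at 10.2 and 9.24 RPM with CsA and at 22.5 and 27.9 RPM with FR10, a log2 difference of -1.28 ± 0.40 (limma adjusted p = 0.522). Its relative Etv5 stood at 194 and 89.9 RPM with CsA and at 166 and 204 RPM with FR10, with overlapping groups. Spry2, a feedback inhibitor of the pathway, went the other way, at 6.03 and 7.92 RPM with CsA and at 1.70 and 4.27 RPM with FR10. Dusp6, a phosphatase of ERK, and Myc lay at or under 3.06 and 1.00 RPM in each library and give no comparison.

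Early germ cell genes had a median of -0.14, close to that of all genes. Of 29 tested members 1 had both CsA libraries above (3.45%) and 5 both below (17.2%), against 8.61% and 16.8% of all genes. Pou5f1 (OCT4) stood at 391 and 521 RPM with CsA and at 395 and 531 RPM with FR10. The specifying factors Prdm1 (53 and 28.7 RPM with CsA, 45.9 and 20.8 RPM with FR10), Prdm14 (54.2 and 42.6 RPM with CsA, 58.9 and 48.0 RPM with FR10) and Tfap2c (62.7 and 54.7 RPM with CsA, 62.9 and 83.9 RPM with FR10) stood close between groups. The groups of Prdm1 and Prdm14 overlapped, and those of Tfap2c were apart by a narrow gap. Kit, the receptor of SCF, stood at 121 and 73.0 RPM with CsA and at 109 and 103 RPM with FR10. Pecam1, an adhesion gene of early germ cells and endothelium, was lower with its groups apart, at 76.2 and 53.4 RPM with CsA and 97.7 and 99.4 RPM with FR10.

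Later germ cell genes, which act in meiosis and transposon control, had the lowest list median, -0.55 over 21 tested members, of which 19 had a negative log2 difference. Both CsA libraries lay below for 6 (28.6%, against 16.8% of all genes) and above for 1. Leaving out FR10 replicate 1 brought the median to 0.00, leaving out CsA replicate 2 to -0.04, and leaving out either of the other libraries to -1.07. Between CsA and FR10 libraries of the same number, 18 of 21 members were lower in replicate 1 (85.7%) and 17 in replicate 2 (81%). Over all genes tested 49.4% and 62.9% were lower. The members summed to 992 and 368 RPM with CsA and to 1600 and 557 RPM with FR10. Dazl, an RNA-binding factor of germ cell commitment, stood at 339 and 40.0 RPM with CsA and at 694 and 93.7 RPM with FR10, lower with CsA in each replicate number, while the replicates of a group lay further apart than the groups, and the log2 difference was -1.12 ± 0.78. It turned to 0.41 when CsA replicate 2 was left out, and to 0.32 when FR10 replicate 1 was. Ddx4, the germ cell helicase VASA, stood at 63.9 and 25.6 RPM with CsA and at 73.5 and 29.9 RPM with FR10. Brdt, a bromodomain protein of spermatogenesis, stood at 3.31 and 0 RPM with CsA and at 17.7 and 3.52 RPM with FR10, and Gpat2, an acyltransferase of the piRNA pathway, at 45.5 and 18.7 RPM with CsA and at 61.9 and 55 RPM with FR10, both with groups apart.

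**Figure D4:**
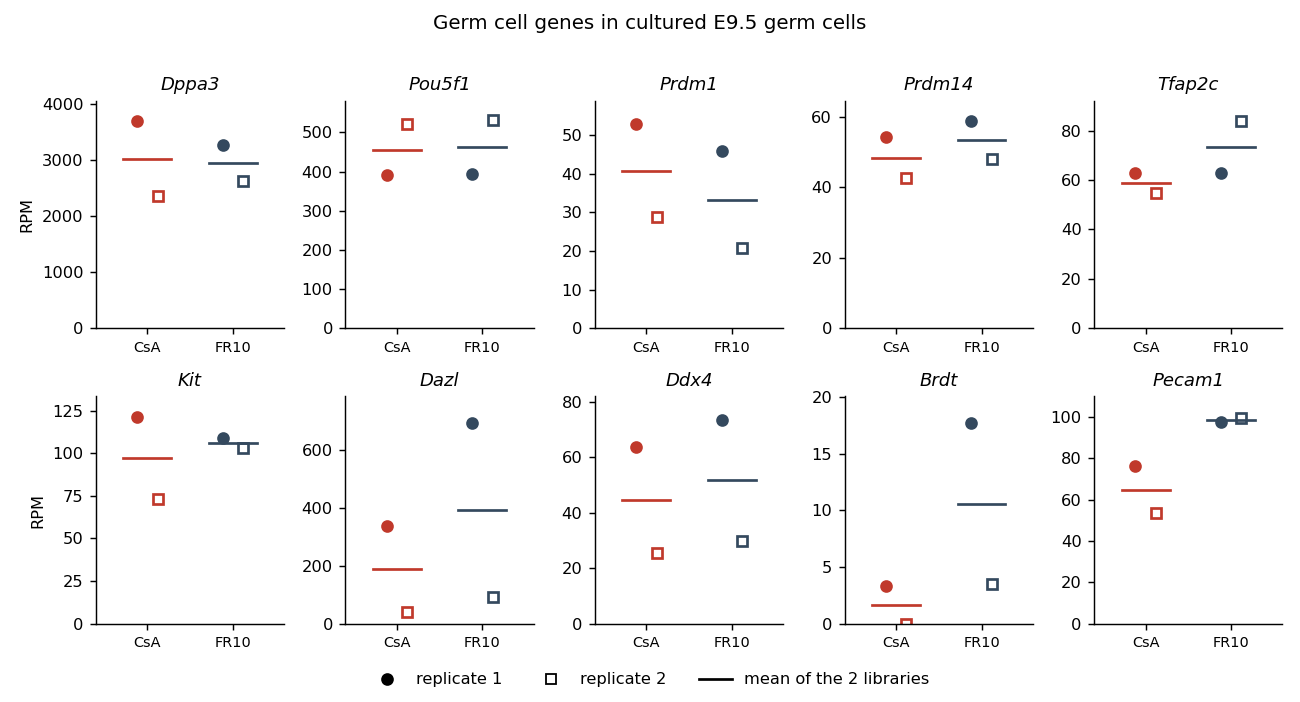
RPM (vertical axes, from 0) of 10 germ cell genes in the 2 CsA libraries (left, red) and the 2 FR10 libraries (right, dark blue) of cultured E9.5 germ cells, with circles for replicate 1, squares for replicate 2 and lines for the mean. Dazl ranges from 40.0 to 694 RPM and is lower in replicate 2 of each group, while Pou5f1 overlaps fully between groups.

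Of 30 tested mitosis and G2 genes 10 had both CsA libraries below (33.3%, against 16.8% of all genes) and 0 above, with a median of -0.25. Mki67 stood at 133 and 102 RPM with CsA and at 151 and 206 RPM with FR10, and Ccna2 (cyclin A2) at 243 and 182 RPM with CsA and at 323 and 282 RPM with FR10. Under median-ratio scaling 7 members lay below (23.3%, against 13.2% of all genes), and without CsA replicate 1 20 lay below (66.7%, against 50.2%). The 29 tested genes of DNA replication had 7 below (24.1%) and 1 above and a median of -0.22, and under that scaling 4 below (13.8%), near the share of all genes. Of 16 tested p53 targets, 4 lay above (25%, against 8.61% of all genes) and 1 below, while the median was -0.01 and 9 members had a negative difference. Without CsA replicate 1 there were 4 above (25%) and 10 below (62.5%), against 21.5% and 50.2% of all genes. Mdm2, which targets p53 for degradation, stood at 137 and 77.1 RPM with CsA and at 200 and 124 RPM with FR10, with overlapping groups. Members with CsA above were Perp, an apoptosis effector, at 41.6 and 52.4 RPM with CsA against 28.2 and 23.6 RPM with FR10, and Gadd45a, a growth arrest gene, at 44.6 and 63.2 RPM with CsA against 28.2 and 39.2 RPM with FR10. Among 24 heat shock proteins of the cytosol and mitochondria 2 lay above (8.33%) and 4 below (16.7%), near the shares of all genes. Hspb1 led them at 474 and 769 RPM with CsA and 163 and 359 RPM with FR10, a log2 difference of 1.31 ± 0.39 (limma adjusted p = 0.522).

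Of the 12 lower genes with the smallest p, Bnip3 was the only one that belonged to a list. Mxd4, a MAX partner that opposes MYC, stood at 0.301 and 0 RPM with CsA and at 9.19 and 8.29 RPM with FR10, a log2 difference of -3.09 ± 0.53 (limma adjusted p = 0.098). The CsA values lie under the level of 3 reads, so the size of that difference depends on the pseudocount. Klhl13, an adaptor of a cullin ubiquitin ligase that acts in cytokinesis, stood at 104 and 73.9 RPM with CsA and at 169 and 185 RPM with FR10, a log2 difference of -1.0 ± 0.20 (limma adjusted p = 0.181). Tm4sf1, a tetraspanin-like membrane protein, stood at 0.603 and 0.377 RPM with CsA and at 7.83 and 12.8 RPM with FR10, and Axl, a receptor tyrosine kinase, at 1.51 and 0.189 RPM with CsA and at 7.15 and 11.8 RPM with FR10. Ppp4r2, a regulatory subunit of protein phosphatase 4, stood at 59.1 and 46.4 RPM with CsA and at 114 and 88.4 RPM with FR10.

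The same drug was given to d4c7 cells with their own FR10 controls, so the 2 effects share no library. In d4c7 limma called 3 genes (0.0314%), Hsp90b1 and Sec61b higher and Dmtf1 lower, while 1093 genes had both CsA libraries above (11.4%) and 3976 both below (41.6%). The test of the difference of effects, E9.5c5 minus d4c7, called 0 of 9561 genes (0%), with 616 at an unadjusted p under 0.05, a smallest adjusted p of 0.677 and 0 calls by voom. Across genes the 2 effects had a Pearson r of 0.168 and a Spearman rho of 0.147, as a description, since genes are not independent replicates.

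The ER chaperones gave higher values with CsA in both kinds of cell. In d4c7 both CsA libraries lay above for 15 of 26 members (57.7%, against 11.4% of all genes) and below for 1. The list of signalling and degradation genes did not share this, with 6 of 25 above and 7 below in d4c7 and a median of 0.03, and Selk had a log2 difference of 0.03 there with overlapping groups. Of the 12 leading higher genes in E9.5c5, 9 had both CsA libraries above in d4c7 and 0 below. Hspa5 stood at 660 and 697 RPM with CsA and at 257 and 288 RPM with FR10 in d4c7, a log2 difference of 1.31 there, and Hsp90b1 at 848 and 918 RPM with CsA and at 451 and 414 RPM with FR10, a difference of 1.03. The difference of the effects on Hsp90b1 was 0.04 ± 0.23, and on Hspa5 0.29 ± 0.44. Of the 823 higher genes in E9.5c5, 141 (17.1%) were apart and higher in d4c7 and 252 (30.6%) apart and lower there, against 11.4% and 41.6% of all genes. Of the 1602 lower genes, 789 (49.3%) were lower and 109 (6.80%) higher in d4c7. As shares of the d4c7 lists, the 141 are 12.9% of 1093, the 252 are 6.34% of 3976, the 109 are 9.97% of 1093 and the 789 are 19.8% of 3976.

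For glycolysis and hypoxia genes the lists are given side by side, since no difference of effects passed the adjusted threshold and none was tested for a list. The glycolysis list had a median of -0.51 in E9.5c5, against -0.11 for all genes, and of -0.16 in d4c7, against -0.24 for all genes. Its members lay below for 11 of 23 in each kind of cell, which in d4c7 (47.8%) is near the 41.6% of all genes. The hypoxia list had a median of -0.45 with 9 of 21 below in E9.5c5, and of -0.05 with 8 of 21 below (38.1%) in d4c7. Pkm stood at 501 and 512 RPM with CsA and at 477 and 566 RPM with FR10 in d4c7, and its difference of effects was -0.84 ± 0.32. Bnip3 stood at 26.6 and 32.6 RPM with CsA and at 27.5 and 20.7 RPM with FR10 in d4c7, with a difference of effects of -1.71 ± 0.48 (unadjusted p = 0.00224). Slc16a3, the lactate exporter MCT4, stood at 0.904 and 0.566 RPM with CsA and at 2.38 and 7.79 RPM with FR10 in E9.5c5, and at 5.5 and 6.65 RPM with CsA and at 0.774 and 1.38 RPM with FR10 in d4c7. The groups were apart in opposite directions, with a difference of effects of -3.44 ± 0.96, at levels near a few reads.

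Some other genes with a small p for the difference of effects stood apart between CsA and FR10 mainly in d4c7 cells. Dmtf1, a MYB-like factor that acts on the ARF and p53 route, stood at 38.3 and 25.3 RPM with CsA and at 27.2 and 23.6 RPM with FR10 in E9.5c5, and at 13.9 and 16 RPM with CsA and at 70.9 and 42.1 RPM with FR10 in d4c7, a difference of effects of 2.09 ± 0.42. Rheb, the small GTPase that activates mTORC1, stood at 160 and 162 RPM with CsA and 155 and 140 RPM with FR10 in E9.5c5, and at 113 and 122 RPM with CsA and 255 and 210 RPM with FR10 in d4c7. Kit stood at 71.8 and 89.4 RPM with CsA and at 230 and 182 RPM with FR10 in d4c7, with a difference of effects of 1.17 ± 0.35 (unadjusted p = 0.00405). Bop1, a ribosome assembly factor, was apart in opposite directions, at 94.9 and 69.9 RPM with CsA and 127 and 111 RPM with FR10 in E9.5c5 and at 142 and 118 RPM with CsA and 86.4 and 70.4 RPM with FR10 in d4c7.

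**Figure D5:**
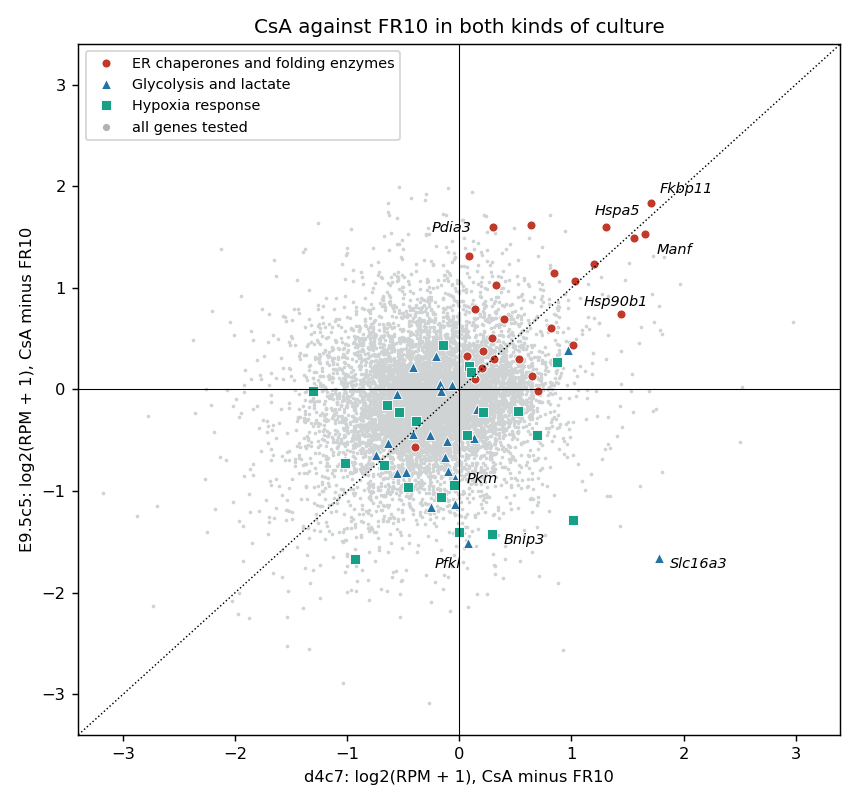
Log2 difference of RPM + 1, CsA minus FR10, in d4c7 cells (horizontal axis) and in E9.5c5 cells (vertical axis) for 9561 genes, with ER chaperones as red circles, glycolysis genes as blue triangles, hypoxia genes as green squares and the line of equal effects dotted. ER chaperones lie mostly in the upper right, while several glycolysis and hypoxia genes lie below 0 in E9.5c5 and near 0 in d4c7.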

How the data were processed

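Per the labels' protocols, SC3-seq libraries were made from about 1 ng of RNA, and the authors deposited RPM values per gene. Reads were handled with TopHat 1.4.1, Cufflinks 2.2.0 and cutadapt 1.3 on mm10, per the submitters' processing notes, which give no roles. Because SC3-seq reads the 3′ end, RPM was not divided by gene length, and levels are compared between libraries and not between genes. Genes with at least 10 RPM in at least 2 of 18 libraries (9561 of 34896) were tested on log2(RPM + 1), which understates differences of low genes, with limma 3.58.1 (R 4.3.3, mean trend, 9 group means, Benjamini-Hochberg). Effects in E9.5c5, in d4c7 and their difference were estimated. Code was tested on simulated data. Groups follow titles. Named genes are the 12 higher and 12 lower with the smallest p among those without overlap, up to 4 per list, a fixed panel and 5 each way for the difference of effects, besides those said to be chosen later. The members, lists and panel were chosen with earlier results of these data known. Total RPM was 999253 to 999617. Depth was inferred from the RPM step and covers counting error only. Alternatives changed the pseudocount, filter, scaling, libraries, weights and blocking, and a fit with voom weights, list counts without a library and list counts under another scaling were added after seeing the data.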

Additional observations from a re-analysis of the deposited data

How the results depend on the processing

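The count of genes called between CsA and FR10 in E9.5c5 was 0 with RPM as deposited. It was 2 with a pseudocount of 0.1 RPM, 5 with no filter, 1 with a filter at 50 RPM, 3 under median-ratio scaling (Hsp90b1, Hspa5 and Manf), 1 with voom weights and 9 without replicate 2 of E9.5c5 CsA, E9.5c5 FR10 and d4c7 FGF2. It stayed at 0 with a pseudocount of 10 RPM, with the 4 E9.5c5 libraries alone, with the 12 cultured libraries and with array weights. Leaving out each E9.5c5 library gave 0 to 654 calls. For the difference of effects the count was 1 with no filter and 0 to 6 when leaving out each library, with 6 without E9.5c5 CsA replicate 1, and 0 under the other alternatives run. The labels do not say that replicate numbers pair the samples. Deviations of same-numbered libraries correlated at 0.34 in E9.5c5 and at -0.0301 in d4c7, and with the replicate block 5 genes were called in E9.5c5 and 0 for the difference of effects. Genes at an unadjusted p under 0.05 were 86 higher and 234 lower with a filter at 50 RPM, 42 and 93 with 4 libraries alone, 33 and 81 with array weights, 430 and 849 with no filter, and 134 to 606 and 388 to 1859 when each library was left out. Of the 85 tested genes named in the text, 66 kept the sign of their log2 difference under every alternative run and 19 did not. Leaving out each library in turn gave a log2 difference of -0.05 to 1.54 for Calr, -2.65 to 0.41 for Dazl, -0.85 to 0.44 for Ddx4, -0.41 to 0.37 for Dnajc3, -0.32 to 0.33 for Dppa3, -1.43 to 0.59 for Dusp6, -1.02 to 0.08 for Etv5 and -0.98 to 1.10 for Fn1. The range was -0.53 to 0.18 for Kit, -0.46 to 0.43 for Ldhb, -0.04 to 0.09 for Lgals1, -0.13 to 0.12 for Myc, -0.23 to 0.19 for Pou5f1, -0.13 to 0.16 for Ppia, -0.17 to 1.56 for Ppib, -0.23 to 0.87 for Prdm1, -0.31 to 0.03 for Prdm14 and 0.00 to 0.58 for Dmtf1. Median-ratio scaling turned Dnajc3 to 0.08, Ldhb to 0.09, Myc to 0.04 and Pou5f1 to 0.09. Without the 3 libraries named above, Dnajc3 stood at 0.14, Etv5 at 0.23, Kit at 0.15, Ldhb at 0.12, Lgals1 at -0.09 and Myc at 0.18. With voom weights Dppa3 stood at 0.00 and Thy1, at 0 in all 4 libraries, at -0.30. The cause was not tested. The planned quasi-likelihood count test was not run, since the RPM values were not accepted as whole reads. Values under about 1 RPM rest on 3 reads or fewer.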

Other observations

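Several other gene groups were measured in the CsA and FR10 cultures of E9.5 germ cells. Over all genes both CsA libraries lay above for 8.61% and below for 16.8%. Of 75 oxidative phosphorylation genes, 2 had both CsA libraries above and 4 both below the FR10 libraries, with a median log2 difference of -0.06, while in d4c7 cells 47 were above and 14 below, with a median of 0.33, against 11.4% of all genes above, 41.6% below and a median of -0.24 in d4c7. The difference between the kinds of cell was not tested for the list. Histone modification enzymes had 5 of 27 tested members below, close to the share of all genes, and 0 above, among them Kdm2b, a histone demethylase, at 24.7 and 19.4 RPM with CsA and at 43.6 and 38.2 RPM with FR10. Of 9 tested DNA methylation enzymes 1 lay above, the glycosylase Tdg at 38.9 and 45.2 RPM with CsA against 32.0 and 24.9 RPM with FR10, and 1 below. Sterol and fatty acid genes were mixed, with 3 of 31 above and 6 below. Hmgcs1, an early enzyme of sterol synthesis, stood at 55.4 and 45.1 RPM with CsA and at 118 and 75.6 RPM with FR10, and Scd1, a fatty acid desaturase, at 6.33 and 6.98 RPM with CsA and at 1.02 and 3.26 RPM with FR10.

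The antioxidant list had 1 of 25 above and 3 below, with the peroxiredoxin Prdx5 at 33.1 and 42.4 RPM with CsA and at 55.1 and 71.1 RPM with FR10. The Bcl2 family had 2 of 13 above and 3 below, with the pro-apoptotic Bax at 74.4 and 64.9 RPM with CsA and at 93.6 and 97.4 RPM with FR10. The cAMP list had 1 of 18 above and 2 below, with the kinase gene Sik1, a CREB target, at 2.41 and 3.58 RPM with CsA and at 10.2 and 5.52 RPM with FR10. Imprinted genes had 2 of 18 above and 1 below, BMP and mesoderm genes 0 of 10 above and 1 below, small nucleolar RNA hosts 2 of 11 above and 2 below, and translation factors 0 of 28 above and 2 below.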
